A study of Mus musculus with 116 samples.

Results

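The joining of a Cas9 break in c-Myc was compared between G1-arrested cells without DNA ligase IV and wild-type (WT) cells in 18 of the 116 samples of the series. The 9 Lig4-/- and 9 WT libraries were chosen by sample title: Lig4_A1_Cas9 against WT_A_Cas9 (set A), Lig4_A1_b_Cas9 against WT_A_b_Cas9 (set A_b) and Lig4_B1_Cas9 against WT_B_Cas9 (set B), with 3 libraries in each group. All were mouse v-Abl pro-B cells that carry an Emu-Bcl2 transgene, were held in G1 by STI-571 at 3 µM over 96 h, and received Cas9 and a c-Myc guide RNA by nucleofection. These are B-cell progenitors transformed by the v-Abl kinase, which STI-571 inhibits, and Bcl2 protects arrested cells from death. Each genotype is represented by 2 clones, so a trait of a clone and an effect of the genotype are separated only as far as A1 and B1 do alike. How the clones were derived, how Lig4 was disrupted and whether replicates came from separate cultures are not given in the labels, so p-values measure the spread between these libraries. Lig4 expression was not measured here, and the genotypes rest on the labels.

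In mammalian cells, ligase IV seals broken DNA ends at the last step of classical non-homologous end joining, the main way a G1 cell repairs a double-strand break. Ends that are not joined this way can be trimmed and joined by alternative pathways, which often use short stretches of matching bases (microhomology) at the junction. The assay, LAM-HTGTS, a translocation sequencing method based on linear amplification, reads out from a primer next to the break (the bait) into whatever sequence the broken end was joined to (the prey). In a join in germline direction the prey is the other side of the same break, so deletions and insertions can be read from it. A prey on another chromosome is listed as a translocation. Whether each such row is a join of the break was not tested.

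The break lies on chromosome 15 within the span of Myc (15:61985341-61990361 on the mm10 build), between base 61987303, the most frequent bait end of the set A WT libraries, and base 61987304, the most frequent prey start. The first line below gives the 30 bases on each side of it, read from the deposited sequences. Capitals in that line mark a GGG triplet 3 bases past the break, the form and distance of a Cas9 recognition motif. The next lines show the 3 joins in germline direction found in most Lig4-/- libraries, then the 2 other joins with most rows in WT; each has 20 bases on either side, and capitals mark inserted bases or the bases that bait and prey share. A join is defined by its positions and its number of inserted or shared bases, and each line shows its most frequent sequence. Inserted bases are those that the alignments left between bait and prey. In the first join the inserted G is also base 61987304 of the unbroken sequence.

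Unbroken: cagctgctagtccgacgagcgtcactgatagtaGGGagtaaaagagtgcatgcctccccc
Prey from base 61987306, 1 base inserted, 8 Lig4-/- libraries: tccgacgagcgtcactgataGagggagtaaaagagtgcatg
Prey from base 61987304, 1 base inserted: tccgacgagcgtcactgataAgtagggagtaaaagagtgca
Prey from base 61987305, 2 bp shared: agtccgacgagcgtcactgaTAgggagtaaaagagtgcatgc
WT, 2 bases inserted, most frequent form: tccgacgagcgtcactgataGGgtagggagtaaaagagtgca
WT, 3 bases inserted, most frequent form: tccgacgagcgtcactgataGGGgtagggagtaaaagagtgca

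Junctions were scarce without ligase IV. Lig4-/- libraries listed 146, 124 and 127 junctions in set A, 74, 100 and 85 in set A_b and 155, 140 and 128 in set B, 1079 in all. WT libraries listed 15888 to 55809, 295393 in all. The raw reads that the labels give for normalization were 396387 (A), 310675 (A_b) and 600000 (B) for every library of a set, so Lig4-/- libraries had 21.3 to 36.8 junctions per 100000 raw reads and no library came near the WT range, whose lowest value was 4671. The difference was -8.05 on the log2 scale (interval -8.38 to -7.73, exact permutation p = 0.00025, the smallest that 8000 relabellings within the 3 sets can give), a 266-fold deficit (interval 212 to 333). WT rows were mostly repeats, and with each distinct junction of a library counted once the deficit was 15.6-fold (exact permutation p = 0.00025). Here and below, counting distinct junctions also merges separate joins of the same structure. At the break 279289 WT rows became 3984 and 83 Lig4-/- rows became 58, so these folds are not deficits corrected for copies. With so few junctions, 3 of them were 1.94% to 4.05% of a Lig4-/- library, which limits what a share of one library can show. These limits cover counting error only, since PCR copies of a molecule cannot be recognised without molecular identifiers.

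One Lig4-/- library stood apart from the other 8. In replicate 2 of set A_b the share of junctions with at least 2 bp of microhomology was 27%, against 48.4% to 63.8% in the others, and the share with inserted bases was 62%, against 11.8% to 36.7%. It listed 31 of the 70 Lig4-/- joins in germline direction that had more than 10 inserted bases, and 11 of the 15 Lig4-/- junctions at the J segments of Igk. The WT library of its sequencing run also held the most joins with more than 10 inserted bases of the WT libraries, 246. Results that rest on this library are given with and without it, an alternative added after the data were seen. Only the Lig4-/- library was left out there, and the WT library of its run was kept.

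The loss was not even across kinds of junction. Joins at the break, with at most 10 bp lost on both sides together, are the main product of end joining in WT. They numbered 7, 3 and 13 in the Lig4-/- libraries of set A, 7, 12 and 9 in set A_b and 12, 10 and 10 in set B, which is 0.757 to 3.86 per 100000 raw reads. WT libraries had 4269 to 10852.5 per 100000. All 9 Lig4-/- libraries lay far below all WT libraries, a 3233-fold difference (interval 2219 to 4793, log2 difference -11.66, exact permutation p = 0.00025, adjusted over the 15 results 0.000268). Joins at the break were 91.4% to 96.7% of WT junctions and 2.42% to 12% of Lig4-/- junctions, a difference of -86.7 percentage points (exact permutation p = 0.00025). When each distinct junction of a library was counted once the deficit was 65.8-fold and the difference in share -22.3 points, with the same p. No row in either genotype joined the ends with neither loss nor insertion, so precise rejoining cannot be read from these lists.

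**Figure D1:**
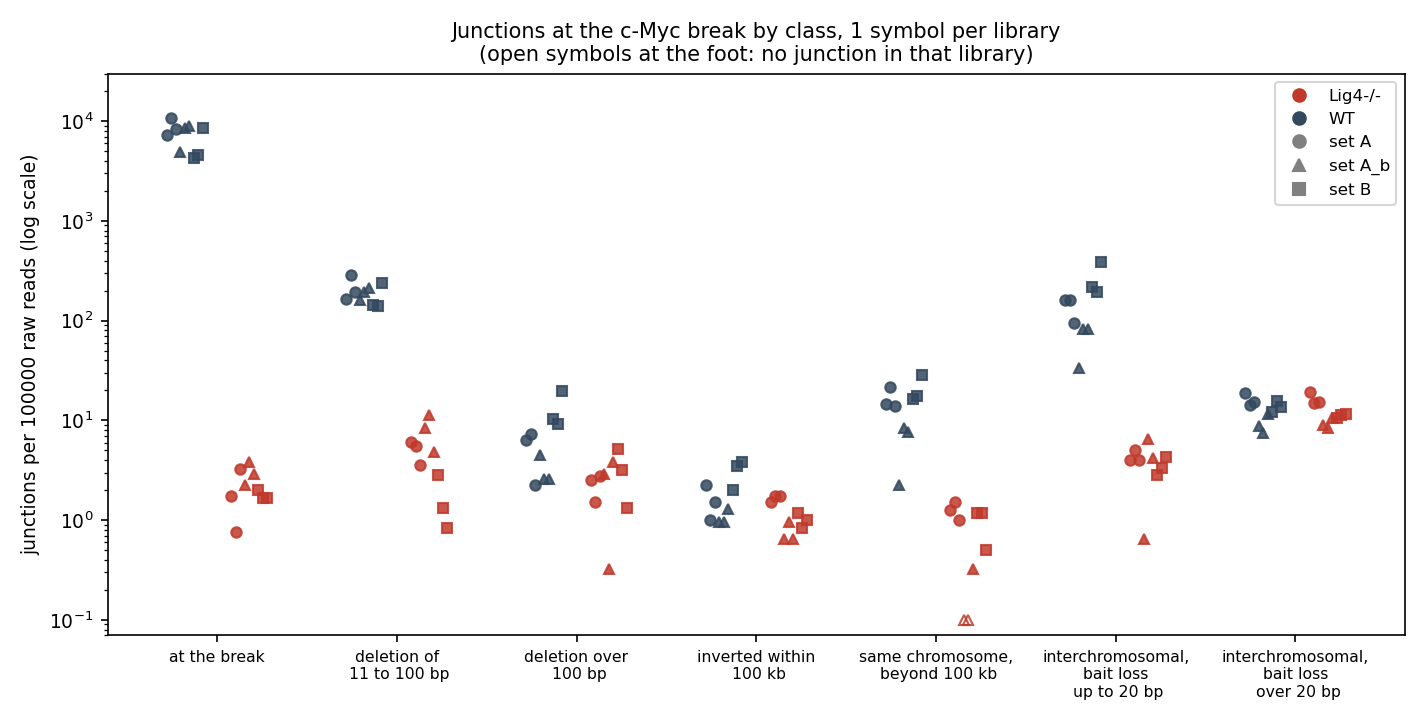
Junctions per 100000 raw reads (log axis) in each of 18 libraries, by class, with WT in dark blue and Lig4-/- in red and a symbol shape for each set. WT lies above Lig4-/- by 3233-fold at the break, by 47.6-fold for deletions of 11 to 100 bp, and by 1.05-fold for interchromosomal junctions with more than 20 bp lost from the bait, where the symbols overlap.

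The joins at the break that remained were built differently. Of the 83, 62 were shorter than the unbroken sequence, 17 longer and 4 equal in length, whereas 72.4% of the WT joins at the break were longer. The share of shorter joins was 57.1% to 100% in Lig4-/- libraries and 14.8% to 44.2% in WT libraries without overlap, a difference of 52.2 points (interval 35.3 to 68.4, exact permutation p = 0.00025, chosen after the data were seen). The most frequent WT join, 1 base inserted between ends that lost nothing, made up 32.3% of WT joins there (90236 rows) and 11 of 83 in Lig4-/- (13.3%). The most frequent Lig4-/- join was aligned as the whole bait, 1 inserted base and prey from base 61987306. It was listed in 8 of 9 libraries with 16 rows (19.3%), against 0.225% in WT. The base aligned as inserted was G in all 16 of these rows and in 298 of the 629 WT rows. G is also base 61987304 of the unbroken sequence. With G, the read is therefore the unbroken sequence without base 61987305, a deletion of 1 base. Insertions of 2 and of 3 bases between ends that lost nothing, with 40163 and 21244 rows in WT, were in no Lig4-/- library. GG was the inserted pair in 26.5% of the former and GGG the inserted triplet in 22.6% of the latter. Of the 83 joins, 82 had the structure of a junction in some WT library and 79 in a WT library of the same sequencing run. Over all 1079 Lig4-/- junctions these numbers were 214 (19.8%) and 158 (14.6%). WT libraries listed 279289 rows of joins at the break, so a shared structure there does not tell where a row came from. Whether reads passed between libraries of a run was not tested.

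The deficit was smaller for longer deletions. Deletions of 11 to 100 bp numbered 5 to 35 per Lig4-/- library, or 0.833 to 11.3 per 100000 raw reads, against 139 to 288 in WT without overlap. This class counts bases lost, whatever was inserted. The highest count, 35, was that of replicate 2 of set A_b. Of its joins in germline direction, 31 had more than 10 inserted bases, all within this class. Among these, 26 inserted exactly as many bases as they lost. WT was 47.6-fold higher (interval 29.2 to 78.8, exact permutation p = 0.00025, and 50.7-fold without replicate 2 of set A_b). Deletions over 100 bp numbered 10, 6 and 11 in set A, 9, 1 and 12 in set A_b and 31, 19 and 8 in set B of Lig4-/-, against 25, 29 and 9, 14, 8 and 8, and 62, 55 and 119 in WT. The groups overlapped in sets A and A_b, and WT was 2.53-fold higher (interval 1.33 to 4.89, exact permutation p = 0.00775). Repeated rows made up 98.6% of WT joins at the break and 42.2% of WT deletions of 11 to 100 bp. With distinct junctions counted once, WT was 32.6-fold higher for 11 to 100 bp (exact permutation p = 0.00025). For longer deletions it was 2.40-fold higher (exact permutation p = 0.01025), against 65.8-fold at the break. Joins with more than 20 bp lost on both sides were 162 in Lig4-/- and 366 in WT, 2.08-fold higher in WT (interval 1.17 to 3.71, exact permutation p = 0.0155). Of these joins, 37 in Lig4-/- and 43 in WT had more than 10 inserted bases. The longest prey-side deletion was 1038 bp in Lig4-/- and 51497 bp in WT.

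As aligned, both ends were trimmed in the residual joins. Over all junctions the median bait-side loss of a library was 16 to 33 bp in Lig4-/- and 0 in each WT library, and the median prey-side loss of joins in germline direction was 10 to 91 bp against 0. Neither measure overlapped (each exact permutation p = 0.00025, adjusted 0.000268), and the lowest value of both was that of replicate 2 of set A_b. The bait measure includes interchromosomal junctions, of which 485 of the 1079 Lig4-/- junctions lost more than 20 bp from the bait. Over the pooled Lig4-/- joins in germline direction alone, the median bait-side loss was 23 bp, and 18 bp with at most 10 inserted bases. In WT both were 0. Among the 356 Lig4-/- joins in germline direction 57 kept the whole bait, 29 the whole prey side, and 45.5% lost more than 20 bp from both, against 0.127% of WT joins. With joins of more than 10 inserted bases left out, 125 of 286 Lig4-/- joins (43.7%) lost more than 20 bp from both, against 0.113% in WT. The bait read starts 109 bases before the break and no junction lost more than 86 bp from it, so a longer loss on that side could not be seen.

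**Figure D2:**
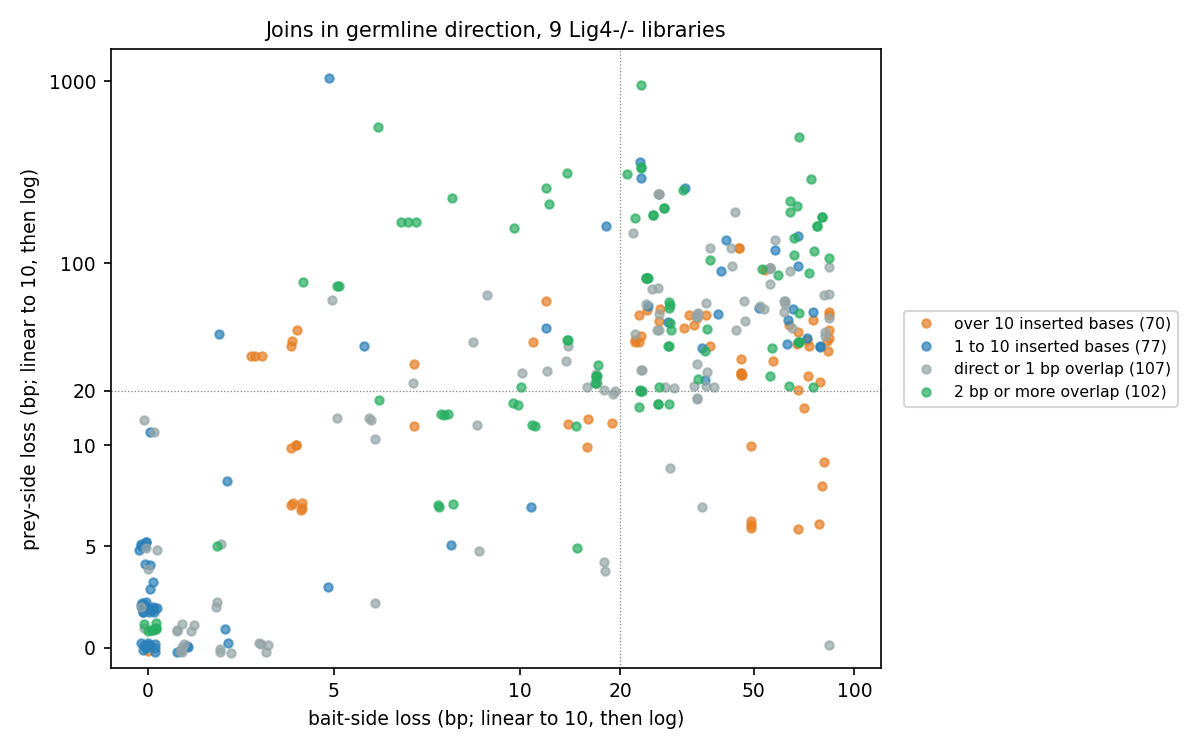
Bait-side loss (horizontal) against prey-side loss (vertical) in bp for the 356 joins in germline direction of the 9 Lig4-/- libraries, on axes linear to 10 bp and logarithmic beyond, with points moved slightly at random so that repeats can be seen. Colours mark inserted bases and overlap; 162 of the joins lie beyond 20 bp on both sides (dotted lines), and 1 of the 70 with more than 10 inserted bases (orange) kept the whole bait.

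Over all locations, microhomology was more frequent among the residual junctions than in WT and insertion less frequent. Junctions with at least 2 bp of overlap between the bait and prey alignments were 62.3%, 58.9% and 63.8% of set A, 58.1%, 27% and 62.4% of set A_b and 54.8%, 50% and 48.4% of set B in Lig4-/-, and 0.82% to 5.27% in WT. The difference was 51.7 percentage points (interval 43.6 to 58.8, exact permutation p = 0.00025), and 55.4 without replicate 2 of set A_b. The mean length of the overlap, over junctions without insertion, was 5.03 to 8.27 bp in Lig4-/- and 0.308 to 0.608 bp in WT, a difference of 6.04 bp (interval 5.48 to 6.58, exact permutation p = 0.00025). Both differences were smaller near the break. Kept to chromosome 15, the difference in share was 37.2 points and that in length 3.51 bp, and without interchromosomal junctions of 8 bp or more of overlap they were 34.4 points and 2.97 bp (each exact permutation p = 0.00025). As a rate, microhomology junctions were 8.18-fold fewer per 100000 raw reads than in WT (log2 difference -3.03, interval -3.82 to -2.24, exact permutation p = 0.00025). The size of this deficit depended on the counting: it was 2.65-fold with distinct junctions counted once (exact permutation p = 0.00025) and 1.79-fold with at least 3 bp of overlap (exact permutation p = 0.00125).

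**Figure D3:**
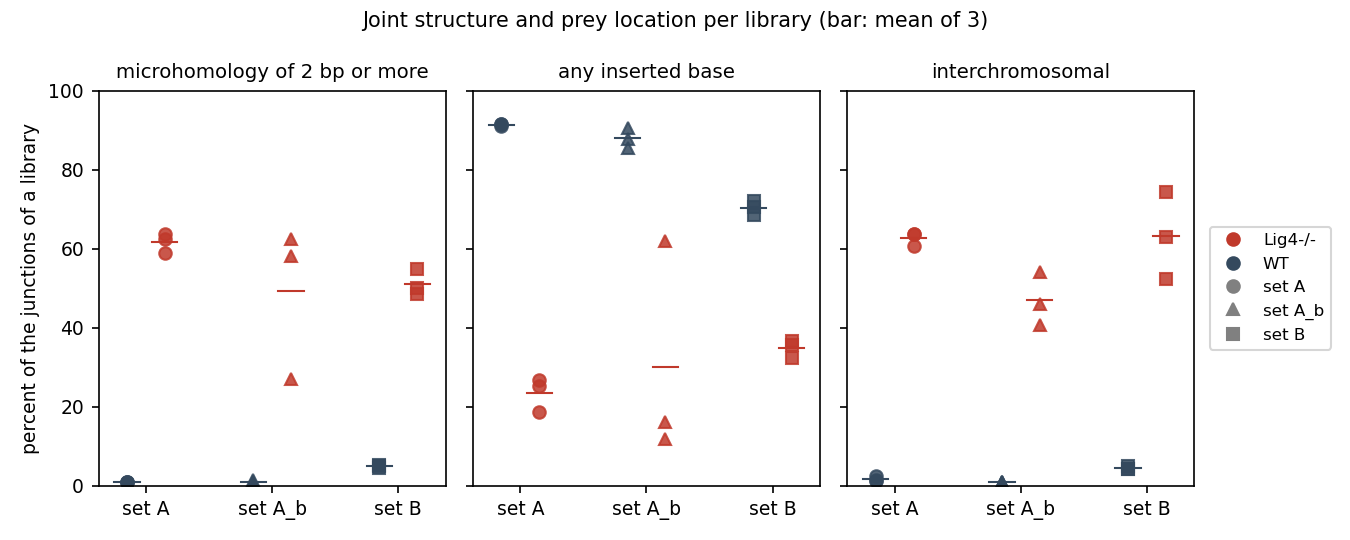
Percent of the junctions of each library with 2 bp or more of microhomology (left), with any inserted base (middle) and on another chromosome (right), by set, with WT in dark blue, Lig4-/- in red and a bar for the mean of 3 libraries. Replicate 2 of set A_b lies apart from the other Lig4-/- libraries at 27% and 62% in the first 2 panels.

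Near the break the overlaps were short. Of the 356 Lig4-/- joins in germline direction, 54 were direct, 53 shared 1 bp, 65 shared 2 bp, 21 shared 3 bp, 10 shared 4 bp, 5 shared 5 to 7 bp and 1 shared 8 bp. Joins with at least 2 bp were 28.3% ± 15.0 (SD, n = 9 libraries) against 1.81% ± 1.69 in WT, a difference of 26.5 points (interval 15.8 to 36.0, exact permutation p = 0.00025) that was 30.5 without replicate 2 of set A_b. In all 102 of them the overlapping bases of the read equalled the bait sequence. Among the interchromosomal junctions the overlaps were long. Of 635, 307 shared 8 bp or more, and 110 of these shared 12 bp or more. The bases equalled the bait in 87.7% of the 301 of these that could be compared, so an overlap on this scale is an overlap of alignments and not always exact homology.

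**Figure D4:**
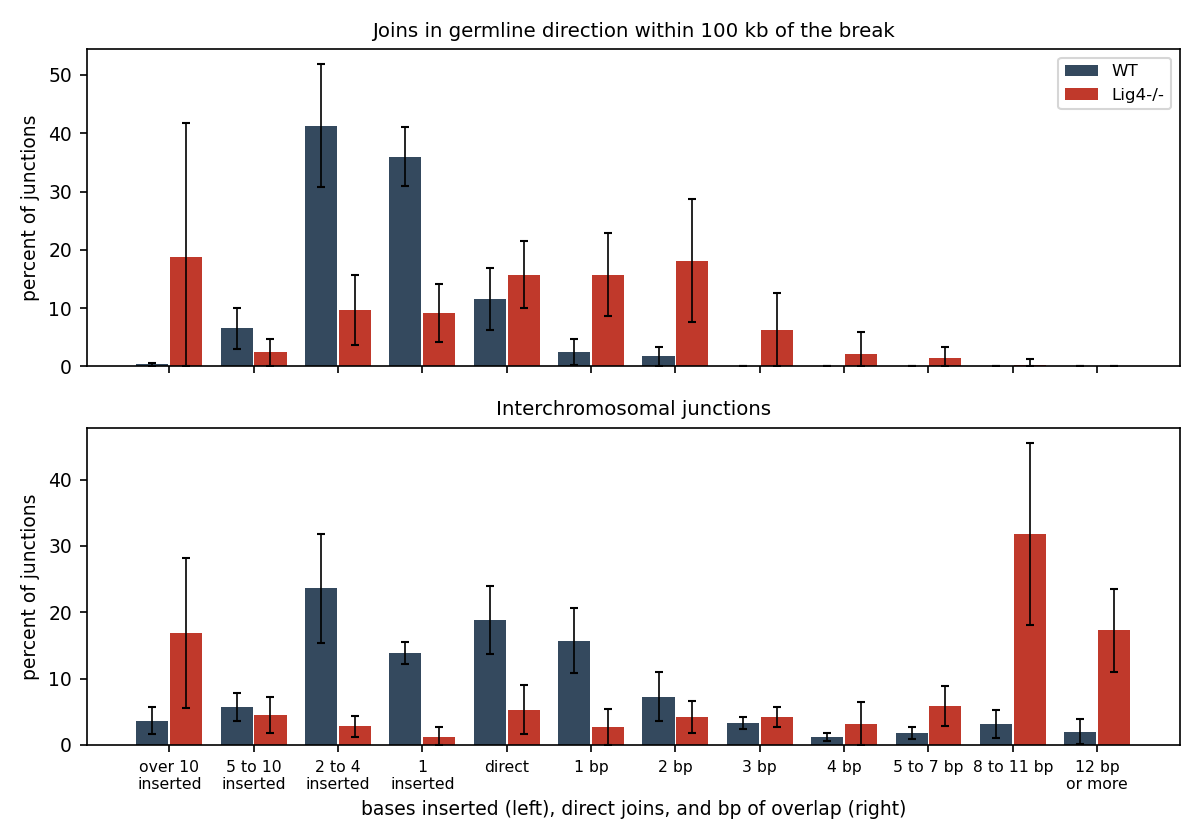
Percent of junctions by number of inserted bases, direct joining or bp of overlap, as the mean over 9 libraries with SD bars, for joins in germline direction (top) and interchromosomal junctions (bottom). In germline direction Lig4-/- (red) is highest at more than 10 inserted bases (18.8% ± 22.9, spread by replicate 2 of set A_b) and at 2 bp of overlap (18.2%), and WT (dark blue) at 2 to 4 inserted bases (41.3%). Among interchromosomal junctions Lig4-/- is highest at 8 to 11 bp (31.8%).

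Short insertions, the main form of WT joins, were scarce. Junctions with inserted bases were 11.8% to 36.7% of 8 Lig4-/- libraries and 62% of replicate 2 of set A_b, against 68.5% to 91.6% in WT, a difference of -53.7 points (interval -65.6 to -40.6, exact permutation p = 0.00025) and of -59.1 without that library. Per 100000 raw reads they were 818-fold fewer (log2 difference -9.68, interval -10.36 to -8.97, exact permutation p = 0.00025), and 37.6-fold fewer with distinct junctions counted once. Short insertions in germline direction, of 1 to 10 bases, numbered 77 in Lig4-/- and 239195 in WT, a 3164-fold difference (interval 2002 to 5183, exact permutation p = 0.00025). Counted once each, distinct short insertions were 60 and 6175, a 103-fold difference (exact permutation p = 0.00025). Of the 35 single inserted bases in Lig4-/-, 20 were G, 10 A, 3 C and 1 T, and 1 was read as N, whereas A made up 74.4% and G 14.5% of the 105000 in WT. Of the 20 G, 16 came from the join with prey from base 61987306, where G is also the unbroken base. These rows read as a deletion, though the counts above take them as insertions. At the most frequent WT join the inserted base was A in 10 of 11 Lig4-/- rows and in 78.3% of WT rows.

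The deficit of long insertions was smaller. Joins in germline direction with more than 10 inserted bases numbered 15, 12 and 7 in set A, 1, 31 and 1 in set A_b and 2, 1 and 0 in set B of Lig4-/-, and 1034 in WT, 23.0-fold more (interval 9.57 to 53.7, exact permutation p = 0.00025, and 32.3-fold without replicate 2 of set A_b). Counted once each, distinct long insertions were 57 and 704, an 18.7-fold difference (exact permutation p = 0.00025), against 103-fold for short ones. Of the 70 in Lig4-/-, 37 (52.9%) inserted exactly as many bases as they lost, so that the read was as long as the unbroken sequence, and 26 of these 37 were in replicate 2 of set A_b. In WT this held for 3.0% of such joins. The mean insertion length, 10.7 to 38 bases in Lig4-/- and 1.82 to 2.9 in WT, differed by 16.5 bases (interval 11.3 to 22.3, exact permutation p = 0.00025). It differed by 1.45 bases once insertions over 10 bases were left out, an alternative added after the data were seen. Whether the long insertions are stretches that the aligner could not place was not tested.

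Junctions to other chromosomes outnumbered joins in germline direction in sets A and B of Lig4-/- (249 against 110, and 264 against 120) and were about as many in set A_b (122 against 126). Interchromosomal junctions made up 40.5% to 74.2% of Lig4-/- libraries and 0.825% to 4.87% of WT libraries, a difference of 55.2 percentage points (interval 48.8 to 61.5, exact permutation p = 0.00025). As a rate they were 8.96-fold fewer (log2 difference -3.16, interval -3.73 to -2.60, exact permutation p = 0.00025), with 9.66 to 23.5 per 100000 raw reads against 42.2 to 400.7. These rows are counted differently from those near the break. Interchromosomal junctions were listed almost without repeats (0% repeated rows in Lig4-/- and 0.713% in WT), while joins in germline direction held 18.8% repeated rows in Lig4-/- and 97.0% in WT, so folds of these classes rest on rows with few and with many repeats. With distinct junctions counted once throughout, the difference in the interchromosomal share was 23.3 points (exact permutation p = 0.001).

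The deficit in interchromosomal junctions lay in those with little loss from the bait. Interchromosomal junctions with at most 20 bp lost from the bait numbered 16, 20 and 16 in set A, 2, 20 and 13 in set A_b and 17, 20 and 26 in set B of Lig4-/-, against 104 to 2322 per WT library. WT was 36.0-fold higher (interval 20.1 to 65.6, exact permutation p = 0.00025). Those with more than 20 bp lost numbered 77, 59 and 61 in set A, 28, 26 and 33 in set A_b and 64, 68 and 69 in set B of Lig4-/-. The WT libraries had 74, 56 and 60, 27, 23 and 36, and 73, 93 and 82. The genotypes overlapped in sets A and A_b and WT lay above in set B. The ratio of WT to Lig4-/- was 1.05 (interval 0.905 to 1.22, exact permutation p = 0.487), and within the sequencing runs the log2 difference ran from -0.29 to 0.17. This interval limits a difference in either direction to about 1.22-fold, and the p does not show that the rates are equal.

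The split at 20 bp was chosen after the data were seen. With bounds of 10, 15, 25 and 30 bp the ratio was 1.18, 1.08, 1.09 and 1.13, with exact permutation p from 0.0528 to 0.302. By steps of bait loss, WT and Lig4-/- libraries had 101.9 ± 69.7 and 1.45 ± 1.32 interchromosomal junctions per 100000 raw reads with no loss (SD, n = 9 libraries each). They had 10.7 ± 6.47 and 1.69 ± 0.708 with 6 to 20 bp lost. With 21 to 50 bp lost they had 8.08 ± 2.12 and 7.33 ± 1.43, and beyond 50 bp 4.92 ± 1.95 and 5.03 ± 2.46. The means differed by less than the SDs in the last 2 steps only.

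**Figure D5:**
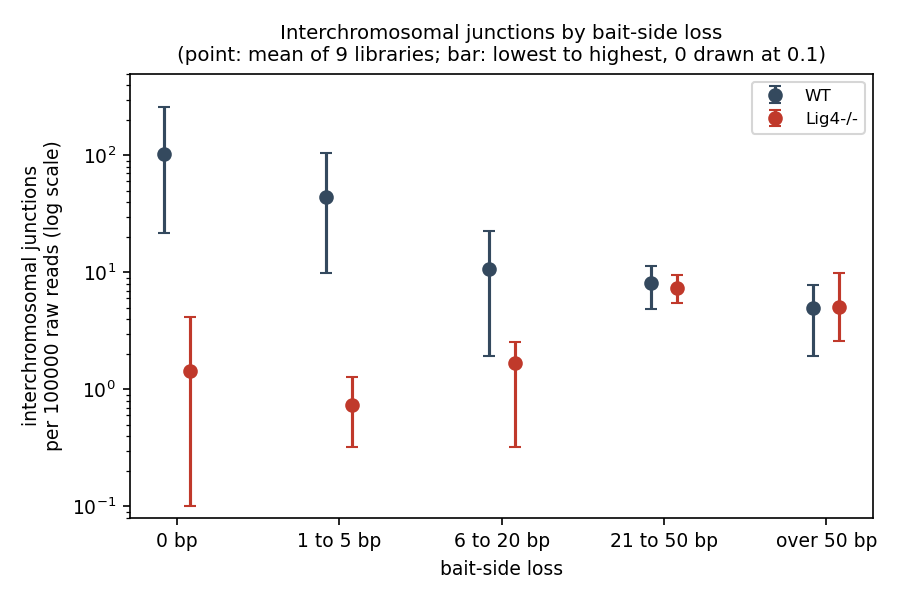
Interchromosomal junctions per 100000 raw reads (log axis) by bp lost from the bait, with WT in dark blue and Lig4-/- in red; points are means of 9 libraries and bars run from the lowest to the highest library, with 0 drawn at 0.1. The genotypes are apart up to 5 bp of loss. Their ranges touch at 6 to 20 bp (lowest WT library 1.93, highest Lig4-/- library 2.52) and overlap widely beyond 20 bp, with means of 8.08 and 7.33 for 21 to 50 bp.

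Among interchromosomal junctions with much loss from the bait, the mean share of long overlaps was somewhat higher in Lig4-/-, though single libraries overlapped. Over 20 bp of bait loss, 275 of 485 Lig4-/- and 221 of 524 WT interchromosomal junctions overlapped by 8 bp or more. Per library this share was 56.3% ± 13.2 against 42.0% ± 19.8 (SD, n = 9 each). The difference was 14.3 points (interval 0.363 to 28.7, exact permutation p = 0.045, not adjusted and chosen after the data were seen). It was 18.3 points without the Lig4-/- replicate 2 of set A_b (30.8%). The WT library of the same run, kept there, had the lowest share of all, 8.70%. The genotypes overlapped in sets A and A_b and were apart in set B only. In both genotypes the overlapping bases of 8 bp or more were rich in G and C, 68.4% in Lig4-/- and 67.6% in WT. The bait ends used most in Lig4-/- were bases 61987280, 61987281, 61987277, 61987265 and 61987279, which lie 22 to 38 bp before the break, and were chosen for their counts there. They held 146 junctions in Lig4-/- and 149 in WT, or 3.64 ± 0.924 and 3.595 ± 1.20 per 100000 raw reads (SD, n = 9 each). Interchromosomal junctions with 8 bp or more of overlap, at any bait loss, were 307 in Lig4-/- and 252 in WT, a ratio of WT to Lig4-/- of 0.755 (interval 0.507 to 1.09, exact permutation p = 0.15). Those with shorter overlap were 17.1-fold more frequent in WT (interval 10.9 to 26.8, exact permutation p = 0.00025).

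Interchromosomal preys in Lig4-/- were spread over all chromosomes, from 56 junctions each on chromosomes 1 and 6 to 2 on the Y. Over all libraries 45.3% ± 5.25 of preys lay on the plus strand in Lig4-/- and 47.9% ± 2.34 in WT (SD, n = 9 each). The genotypes overlapped in sets A and A_b, whereas in set B the Lig4-/- libraries had 45.7%, 36.4% and 41.1% and the WT libraries 47.9%, 48.6% and 50.2%, a difference that was not tested. Outside Igk, 55.7% ± 7.76 of Lig4-/- and 50.5% ± 1.81 of WT preys lay within an annotated gene, and among preys with over 20 bp of bait loss the shares were 58.9% ± 8.47 and 60.7% ± 4.71. Exons and introns were not distinguished.

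Few sites recurred. Of 603 bins of 1 kb beyond 100 kb of the break that held a Lig4-/- junction, 31 held junctions of at least 2 Lig4-/- libraries and 4 of at least 3, and 19 of the 31 also held a WT junction. The bin in most libraries, 17:88145001-88146000 outside any annotated gene, held the same junction in 5 Lig4-/- libraries and 1 WT library, with 73 bp lost from the bait and 14 bp of overlap. Next came the bin at the Igk J segments (6:70722001-70723000) with 15 junctions in 4 libraries, a bin in Znhit1, which encodes a subunit of the SRCAP chromatin remodelling complex (5:136982001-136983000, 5 distinct junctions in 3 libraries), and 4:102620001-102621000 with 3 junctions in 3 libraries. Each of the other 27 bins had 2 libraries. Of the 10 exact junctions found in at least 2 Lig4-/- libraries, 9 had 8 bp or more of overlap. Over all Lig4-/- junctions this held for 307 of 635 interchromosomal ones and 16 of 33 beyond 100 kb on chromosome 15. The junction of chromosome 17 is shown with the shared bases in capitals.

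Chromosome 17, prey from base 88145499: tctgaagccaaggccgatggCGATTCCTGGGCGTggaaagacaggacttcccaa

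The J segments of Igk are cut by the RAG recombinase in arrested pro-B cells, which gives a second break that the c-Myc end can join. Within 200 bp of a J segment Lig4-/- libraries had 15 junctions and WT libraries 1078, 69.2-fold more (interval 23.0 to 185, exact permutation p = 0.0005, and 98.1-fold without replicate 2 of set A_b). Of the 15, 11 were in replicate 2 of set A_b, each distinct, all on the minus strand between bases 70722568 and 70722645, and none equal to a junction of the WT library of the same run. The other 8 Lig4-/- libraries held 0 to 2. In WT 7.91% of the junctions at Igkj1, the segment these lie at, were on the minus strand.

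On chromosome 15 beyond 100 kb, Lig4-/- libraries had 33 junctions and WT 630, 18.1-fold more in WT (interval 11.5 to 28.6, exact permutation p = 0.00025). Preys upstream of the break in germline direction were 10 and 20, with a ratio of 1.57 (interval 0.693 to 3.64, exact permutation p = 0.302), which is not resolved at these counts.

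Inverted joins, in which the prey within 100 kb is read in the opposite direction, numbered 6, 7 and 7 in set A, 2, 3 and 2 in set A_b and 7, 5 and 6 in set B of Lig4-/-, and 9, 4 and 6, 3, 3 and 4, and 12, 21 and 23 in WT. The groups overlapped in sets A and A_b and were apart in set B only. WT was 1.53-fold higher (log2 difference -0.61, interval -1.12 to -0.09, exact permutation p = 0.0275), a call that was lost without replicate 1 (exact permutation p = 0.185), without replicate 3 (exact permutation p = 0.194) and with sets A and B only (exact permutation p = 0.1). As a share of junctions within 100 kb they were 4.55% to 20% in Lig4-/- and 0.00905% to 0.0742% in WT, a difference of 11.4 points (interval 8.15 to 14.7, exact permutation p = 0.00025). Of the 45 Lig4-/- inverted joins, 39 lay at 3 prey positions, and WT libraries had 40 joins there. The positions were chosen because they recurred in Lig4-/-, so these counts and the 6 and 45 joins elsewhere are a description only. Of the joins elsewhere, the WT libraries of set B held 8, 16 and 15. Each join is given by its most frequent sequence, with capitals for the shared bases. The first 2 joins were each listed exactly once in every one of the 9 Lig4-/- and 9 WT libraries, and the sequences shown were read in 16 and 17 of those rows. The last was listed in 5 libraries of each genotype.

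Prey from base 61987330, bait to 61987261: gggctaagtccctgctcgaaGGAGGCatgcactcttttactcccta
Prey from base 61988208, bait to 61987273: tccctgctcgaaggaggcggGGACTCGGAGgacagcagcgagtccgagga
Prey from base 61988227, bait to 61987240: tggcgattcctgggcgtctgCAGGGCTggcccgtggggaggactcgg

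A further inverted join at base 61988208, with the bait aligned to base 61987288 and 27 bp of overlap, was listed in 6 libraries of each genotype. It carries the same bases as the second sequence above over all 50 that can be compared, so both may be alignments of one junction. Repeated rows were absent from this class in both genotypes, and whether the lists can hold repeats of such junctions was not tested. Exact structures shared with a WT library made up 36 of 45 inverted joins, 51 of 166 deletions of 11 to 100 bp, 10 of 107 longer deletions and 31 of 635 interchromosomal junctions. Over all Lig4-/- junctions they made up 214 of 1079 (19.8%).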

How the data were processed

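Junction lists of the JoinT-seq pipeline were used for 18 libraries; per the labels, these deposited lists hold 1 row per junction with the positions of bait and prey alignments, not counts per feature. Bowtie2 and mm10 are named in the submitters' processing notes, without a version. Filters and duplicate removal are not given in the sources used here. Overlap was bait end minus prey start on the read plus 1 (below 0: inserted bases). Joins in germline direction could start up to 10 bp before the break.

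Each library gave 1 value per measure: log2 of junctions plus 0.5 per 100000 raw reads, a share, a mean, or log10 of a median plus 1. Genotypes were compared by a two-sided exact permutation test within the 3 sets, averaged over sets. Intervals are the differences not rejected at 0.05 (95%). The 15 planned results were adjusted by Benjamini-Hochberg; 29 further values, mostly the classes, were tested outside that family. Same-numbered libraries did not deviate together (correlations -0.47 to 0.27, 2 of 9 pairs over 0.1), so numbers were not used as pairs. Replicates shared no read names, and Lig4-/- replicates shared 4.23% to 8.33% of distinct junctions. Members and measures were chosen with earlier results of these data known. Named sites were 1 kb bins in at least 2 Lig4-/- libraries, and named junctions the most recurrent ones. Gene spans are from RefSeq (GRCm38.p6). Tests were tried on simulated data. Python 3.11.15, numpy 2.4.6 and pandas 2.3.3 were used. Alternatives are given in the closing section.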

Additional observations from a re-analysis of the deposited data

Results flagged for a closer look

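The abundance of microhomology junctions differed between the clone pairs. The log2 difference between Lig4-/- and WT was -1.92 in set A, -2.56 in set A_b and -4.61 in set B, and the mean of the first pair of sets lay 2.37 above set B (exact permutation of the clone pair within each genotype, p = 0.00128, adjusted over the 15 results 0.0191; 2.55 without replicate 2 of set A_b). Without that library the clone pairs also differed in the shares of microhomology (14.0 points) and of insertions (-34.5 points; exact permutation, adjusted p = 0.00159 each). With it these differences were 8.30 and -27.4 points and missed the threshold (exact permutation, adjusted p = 0.53 and 0.0714). For microhomology abundance, WT libraries had log2 values of 6.29 ± 0.251 and 6.25 ± 0.644 in sets A and A_b and 8.20 ± 0.575 in set B (SD, n = 3), and Lig4-/- libraries 4.37 ± 0.158, 3.69 ± 0.491 and 3.59 ± 0.228. Per the labels, set B was sequenced on another Illumina instrument type than sets A and A_b, so instrument and clone pair cannot be told apart.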

How the results depend on the processing

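Of 236 values under alternatives, 204 kept their direction and their side of the threshold, 29 kept the direction and lost the call, and 3 reversed. Besides the alternative lists, calls were lost for the abundance of inverted joins only: -0.61 with the replicate number as a block (p = 0.0859 by exact sign flips; the block changed no other call), -0.69 with sets A and B only (exact permutation p = 0.1; 0.005 is the smallest possible there), -0.62 without replicate 1 and -0.50 without replicate 3. It kept its call at -0.71 without replicate 2, so the values with 1 replicate left out ran from -0.71 to -0.50. The cause was not tested.

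The other pipelines' lists exist here for set A, where 3 against 3 libraries cannot go below an exact permutation p of 0.1. In the LAM-HTGTS lists the abundance difference was -2.81 for all junctions, -0.64 for microhomology, -4.73 for insertions, -2.85 for interchromosomal junctions and 0.13 for inverted joins. The difference in share was 56.4 points for microhomology, -44.2 for insertions, -2.54 for interchromosomal junctions and 30.1 for inverted joins, and the mean lengths differed by 4.89 bp of overlap and 9.19 inserted bases. Median losses on the log10 scale differed by 1.33 (bait) and 0.125 (prey). These lists hold 0 joins at the break, so they give no value for those. In the HTGTS-Rep-Rejoin lists the abundance differences were -6.87, -1.52, -9.29, -2.80 and 0.13 in the same order, and -11.21 at the break. The differences in share were 67.2, -77.1, 69.7 and 27.2 points, and -87.6 at the break; lengths differed by 5.80 bp and 10.6 bases, and losses by 1.49 and 1.35. The reversed values are that of interchromosomal share in the first lists and those of the abundance of inverted joins in both, set against the means over the 3 sets. In the main lists set A alone also gave 0.13 for the abundance of inverted joins, so that sign did not change with the lists. The other abundance differences of set A in the main lists were -8.09, -1.92, -10.04 and -2.86 in the same order. Its interchromosomal share differed there by 60.9 points.

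Depth limits the Lig4-/- side, where 74 to 155 junctions a library leave classes of a few junctions unresolved.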
